A study of Caenorhabditis elegans with 2 samples.

Results

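Candidate binding regions of the tagged protein C38D4.7 at unclassified noncoding RNA (ncRNA) genes, away from promoters, are described here. A candidate region was included when its summit, the base of highest signal, lay no more than 200 bp from a gene that RefSeq gives the biotype ncRNA. Regions with a summit within 200 bp of any tRNA, snoRNA, snRNA or rRNA gene were left out, as were regions in a protein-coding promoter, taken as 1000 bp before to 200 bp after each gene start, and regions at the mir-51 family, rpr-1 and mrpr-1. The rule used position only and found 1589 regions, called ncRNA candidates below, of 29979 candidates on the 6 nuclear chromosomes and 30000 in all. Of the 1589, 32 stood in the authors' optimal list, the 649 regions that passed their test of reproducibility between replicates.

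The study mapped binding by chromatin immunoprecipitation and sequencing (ChIP-seq) in late embryos of the nematode Caenorhabditis elegans. All embryos were of strain OP708, which carries the unc-119(tm4063) mutation and a transgene, wgIs708. The transgene holds C38D4.7::TY1::EGFP::3xFLAG, the tagged protein, together with unc-119(+), so the tagged copy was an inserted one and not the gene at its own locus. Embryos of mixed sex, aged 4 hours, were obtained by egg bleaching. Chromatin was sheared by sonication to a labelled size range of 200 to 800, without a unit, and precipitated with an antibody against GFP. There was 1 group with 2 biological replicates, and no untagged or input list was used here, so each value describes the tagged strain alone. The lists held 30000 regions for replicate 1, 26661 for replicate 2 and 30000 for the pooled alignments, and no read counts, so read depth is unknown.

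Unclassified ncRNA genes are here those with the RefSeq biotype ncRNA, and not tRNA, snoRNA, snRNA or rRNA. Most are short transcription units with no long open reading frame, and for nearly all of them no function is known. A few carry names, among them the srpr genes, which encode the RNA of the signal recognition particle. That particle binds ribosomes making secreted or membrane proteins and brings them to the endoplasmic reticulum. In animals its RNA is made by RNA polymerase III, as are tRNAs, and tRNA genes carry an internal promoter element called the B box that is bound by the factor TFIIIC.

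The 5 srpr genes are copies of 1 gene family, and their starts are shown because 3 of them had an optimal summit there. Sequences are from the RefSeq sequence of WBcel235, which is the ce11 assembly of the deposited lists, and are written in the direction of the gene. Lower case marks the 40 bases before the gene and capitals mark its first 40 bases.
srpr-1.1 (chrIII:4379167-4379246, minus strand): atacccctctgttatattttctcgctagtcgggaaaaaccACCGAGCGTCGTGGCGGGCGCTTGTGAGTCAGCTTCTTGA
srpr-1.2 (chrIII:4369428-4369507, plus strand): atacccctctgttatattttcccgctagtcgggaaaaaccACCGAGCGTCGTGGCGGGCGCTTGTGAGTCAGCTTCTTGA
srpr-2.1 (chrIII:5211180-5211259, plus strand): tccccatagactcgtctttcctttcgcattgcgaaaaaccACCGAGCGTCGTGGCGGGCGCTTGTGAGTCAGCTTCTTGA
srpr-2.2 (chrIII:5031669-5031748, minus strand): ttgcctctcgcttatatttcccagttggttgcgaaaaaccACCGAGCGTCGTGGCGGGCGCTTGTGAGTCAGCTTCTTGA
srpr-3 (chrV:9293593-9293672, minus strand): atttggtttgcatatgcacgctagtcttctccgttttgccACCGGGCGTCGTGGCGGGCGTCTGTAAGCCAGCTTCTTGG

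The first 40 bases of srpr-1.1, srpr-1.2, srpr-2.1 and srpr-2.2 were the same in all 4 genes, and srpr-3 shared 34 of these 40 with each of them. The 40 bases before the gene were less alike, with 39 in common between srpr-1.1 and srpr-1.2, 23 between srpr-2.1 and srpr-2.2, 28 and 29 between srpr-2.2 and the srpr-1.1 and srpr-1.2 genes, 20 and 19 between srpr-2.1 and those same genes, and 10 to 16 between srpr-3 and the others. A stretch near the 3′ end of the genes is shown because it bears on how well reads can be placed among the copies. Capitals mark alignment positions where the 5 genes are not all the same.
srpr-1.1 (chrIII:4378910-4378968, minus strand): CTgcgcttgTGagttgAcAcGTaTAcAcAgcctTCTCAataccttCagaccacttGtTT
srpr-1.2 (chrIII:4369706-4369765, plus strand): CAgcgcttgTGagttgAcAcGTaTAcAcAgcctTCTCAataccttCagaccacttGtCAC
srpr-2.1 (chrIII:5211458-5211517, plus strand): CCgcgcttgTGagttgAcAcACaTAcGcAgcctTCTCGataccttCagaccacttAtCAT
srpr-2.2 (chrIII:5031411-5031470, minus strand): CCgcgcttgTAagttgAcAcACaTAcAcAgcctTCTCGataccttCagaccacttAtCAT
srpr-3 (chrV:9293335-9293394, minus strand): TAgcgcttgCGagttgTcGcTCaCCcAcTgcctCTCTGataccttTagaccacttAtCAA

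The whole of srpr-2.1 is shown with its pair of optimal summits in capitals, each summit base with up to 5 bases on either side.
srpr-2.1 (chrIII:5211220-5211518, plus strand): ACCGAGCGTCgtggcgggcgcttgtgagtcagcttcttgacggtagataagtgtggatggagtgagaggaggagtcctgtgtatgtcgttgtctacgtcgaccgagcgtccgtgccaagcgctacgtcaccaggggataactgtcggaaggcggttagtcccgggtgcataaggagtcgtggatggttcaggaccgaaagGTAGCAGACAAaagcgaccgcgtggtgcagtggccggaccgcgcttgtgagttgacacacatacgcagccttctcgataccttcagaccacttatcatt

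The highest-ranked ncRNA candidate lay at T28D6.13, and its window of 101 bases around the summit is shown because it was the 1 optimal ncRNA candidate with the letters of a B box. Capitals mark that match to GTTCNANNC, which reads on the minus strand.
T28D6.13 (chrIII:11371414-11371514, plus strand): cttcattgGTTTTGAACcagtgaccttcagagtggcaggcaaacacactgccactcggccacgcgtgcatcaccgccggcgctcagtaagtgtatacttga

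A further pair of windows is shown because each holds a long run of the dinucleotide TG, which capitals mark.
K06G5.7 (chrX:14229608-14229708, plus strand): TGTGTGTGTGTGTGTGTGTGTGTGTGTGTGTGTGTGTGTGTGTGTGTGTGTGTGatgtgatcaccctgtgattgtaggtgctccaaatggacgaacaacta
Y55B1BR.7 (chrIII:445750-445850, plus strand): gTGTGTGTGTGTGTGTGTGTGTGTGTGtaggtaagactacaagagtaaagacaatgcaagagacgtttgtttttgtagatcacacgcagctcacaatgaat

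GC-rich matches to motifs already known from optimal peaks elsewhere in these data are shown in capitals in the next windows, given on the plus strand. Y67D8A.6 and F10C2.10 hold CCGCCC on one strand or the other, and W06F12.7 and Y46E12BL.5 hold CCGCAC.
Y67D8A.6 (chrIV:3232982-3233082, plus strand): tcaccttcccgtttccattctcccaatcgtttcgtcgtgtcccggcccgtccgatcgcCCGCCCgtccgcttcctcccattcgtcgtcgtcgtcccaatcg
W06F12.7 (chrIII:13721397-13721497, plus strand): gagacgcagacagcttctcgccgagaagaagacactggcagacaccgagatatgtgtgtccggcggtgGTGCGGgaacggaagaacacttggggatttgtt
F10C2.10 (chrV:12024387-12024487, plus strand): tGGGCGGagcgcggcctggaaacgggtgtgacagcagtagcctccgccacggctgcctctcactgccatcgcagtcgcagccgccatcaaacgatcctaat
Y46E12BL.5 (chrII:15253906-15254006, plus strand): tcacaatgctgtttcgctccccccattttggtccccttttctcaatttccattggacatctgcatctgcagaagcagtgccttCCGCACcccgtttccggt

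The share of ncRNA candidates in the optimal list was 32 of 1589, or 2.01% (95% exact binomial interval 1.38 to 2.83). Over all nuclear candidates the share was 629 of 29979, or 2.1%. The ncRNA share stood at this background, so it is not in itself a result about these genes. The optimal list held exactly those pooled regions whose score ranked 649 or better, so a share in it is a share above 1 score. All intervals of this kind cover counting error over regions only, and regions are not replicates.

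Set against candidates of like position, the ncRNA share was higher. Candidates off promoters and small RNA genes and with no ncRNA gene within reach were optimal in 90 of 20604 cases, or 0.437% (0.351 to 0.537), and the intervals did not overlap. In introns, 18 of 678 ncRNA candidates were optimal (2.66%, 1.58 to 4.16), against 46 of 8743 other candidates (0.526%, 0.385 to 0.701). Between genes the counts were 13 of 795 for ncRNA candidates (1.64%, 0.874 to 2.78) and 32 of 5687 for the others (0.563%, 0.385 to 0.793). Without the srpr genes, 25 of 1580 ncRNA candidates were optimal (1.58%, 1.03 to 2.33). Within introns they were then 14 of 674 (2.08%, 1.14 to 3.46), and between genes 11 of 791 (1.39%, 0.696 to 2.48), where the interval overlaps that of the others. In UTR exons 1 of 31 ncRNA candidates was optimal, at srpr-1.1, against 5 of 1029 others (0.486%). In coding exons 0 of 85 ncRNA candidates were optimal, which allows a share of up to 4.25%, against 7 of 5145 others (0.136%). Candidates at protein-coding promoters were optimal in 219 of 7103 cases (3.08%, 2.69 to 3.51) and those near tRNA, snoRNA, snRNA or rRNA genes in 283 of 676 (41.9%, 38.1 to 45.7). No test of these differences was made.

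**Figure D1:**
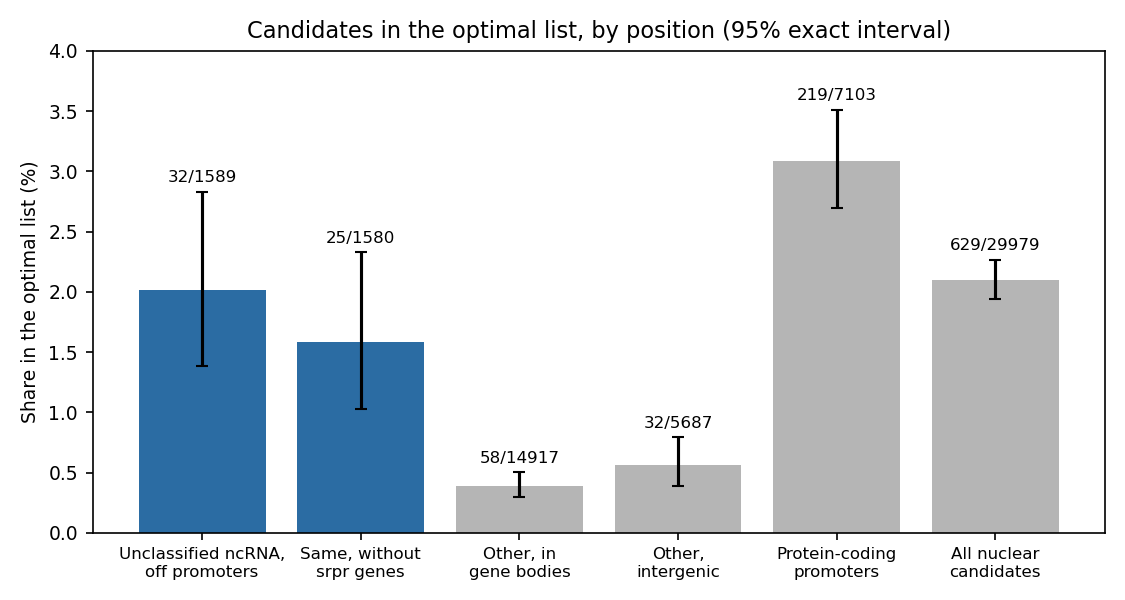
Share of candidate regions that stood in the optimal list (%), by position; bars are shares, error bars are 95% exact binomial intervals and the counts stand above. The ncRNA candidates reached 2.01%, above other candidates in gene bodies (0.389%) and between genes (0.563%), below protein-coding promoters (3.08%) and level with all nuclear candidates (2.1%).

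The authors' score, whose scaling is not stated and which is used only within 1 list, had a median of 75.6 over all 1589 ncRNA candidates, 67.9 over the 20604 other candidates off promoters and small RNA genes, 71.55 over candidates at protein-coding promoters and 69.5 over all nuclear candidates. By median score the ncRNA candidates thus stood above the promoters, while by share in the optimal list they stood below them. Among the 32 optimal ncRNA candidates it ran from 181.4 to 655.6 with a median of 230.7, while over all 629 nuclear optimal peaks the median was 265.5. Among all nuclear candidates, the ncRNA candidates were a larger part of the middle ranks than of the top. They made up 9 of 281 nuclear regions among ranks 1 to 300 (3.20%), 23 of 348 among ranks 301 to 649 (6.61%) and 132 of 1350 among ranks 650 to 2000 (9.78%). Their part then fell off through 7.63% of ranks 2001 to 5000 and 5.44% of ranks 5001 to 10000 to 4.62% of the last 20000. The top ranks also held many regions that the rule left out. Of the 629 nuclear optimal peaks, 283 lay near tRNA, snoRNA, snRNA or rRNA genes. The lower part at the top is therefore not a trait of the ncRNA candidates alone.

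**Figure D2:**
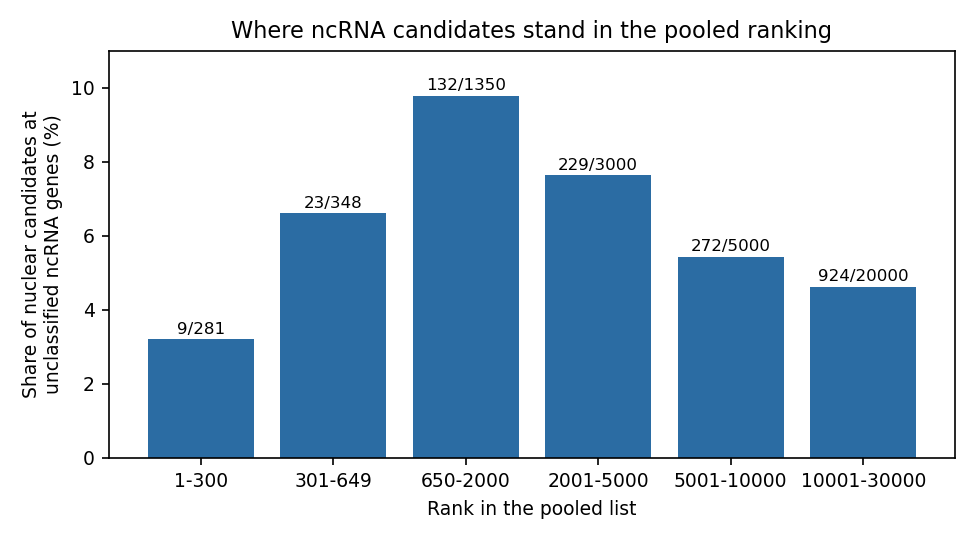
Share of nuclear candidates that were ncRNA candidates (%) in 6 bins of pooled rank, with rank 1 the highest score and the counts above each bar. The share was 3.20% in the top bin, peaked at 9.78% for ranks 650 to 2000 and ended at 4.62%. The nuclear candidates include those near tRNA, snoRNA, snRNA or rRNA genes, which the rule left out and which are frequent at the top.

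The 4 srpr genes on chromosome III gave 7 of the 32 optimal ncRNA candidates. At srpr-2.2, inside an intron of the kinesin gene klp-6, summits lay 239 and 7 bp from the 5′ end of the gene, at pooled ranks 136 and 157 and with scores of 478.9 and 435.9. At srpr-2.1, between genes, they lay at 205 and 4 bp, at ranks 229 and 232, with scores of 350.7 and 348. The pattern was the same in both, a summit at the first bases of the gene and another over 200 bp inside it.

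At srpr-1.2, in an intron of the choline kinase gene ckb-2, the summits stood at 4 and 207 bp, with ranks of 326 and 357 and scores of 269 and 256.7. The summits of a pair were 203 bp apart at srpr-1.2, 201 bp at srpr-2.1 and 232 bp at srpr-2.2. Such spacing was not particular to the srpr genes. Pooled summits stood at −99 and 104 bp at T25C12.7 and at 70 and 272 bp at F52B5.9, with 1 of each pair optimal. srpr-1.1 differed from the srpr genes with paired summits. Its 1 summit lay 49 bp beyond its 3′ end in a UTR exon of pals-26, at rank 208 with a score of 363. Its region was 289 bp wide, and the higher-scoring region at srpr-2.2 was 163 bp wide, while most regions in the list were 470 bp.

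The fifth copy, srpr-3 on chromosome V, was not optimal. Its summits lay at 54 bp inside the gene and 156 bp before it, at pooled ranks 3712 and 20271, with scores of 107.5 and 60.95. It was also the copy least like the others in sequence. Over 299 alignment columns it was 80.9% to 81.6% identical to the other 4, while srpr-2.1 and srpr-2.2 were 99.0% identical, srpr-1.1 and srpr-1.2 were 98.3% identical, and the pairs between these groups were 94.0% to 94.3% identical. In all, 67 of the 299 columns differed among the 5 genes and 21 among the 4 with optimal regions.

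**Figure D3:**
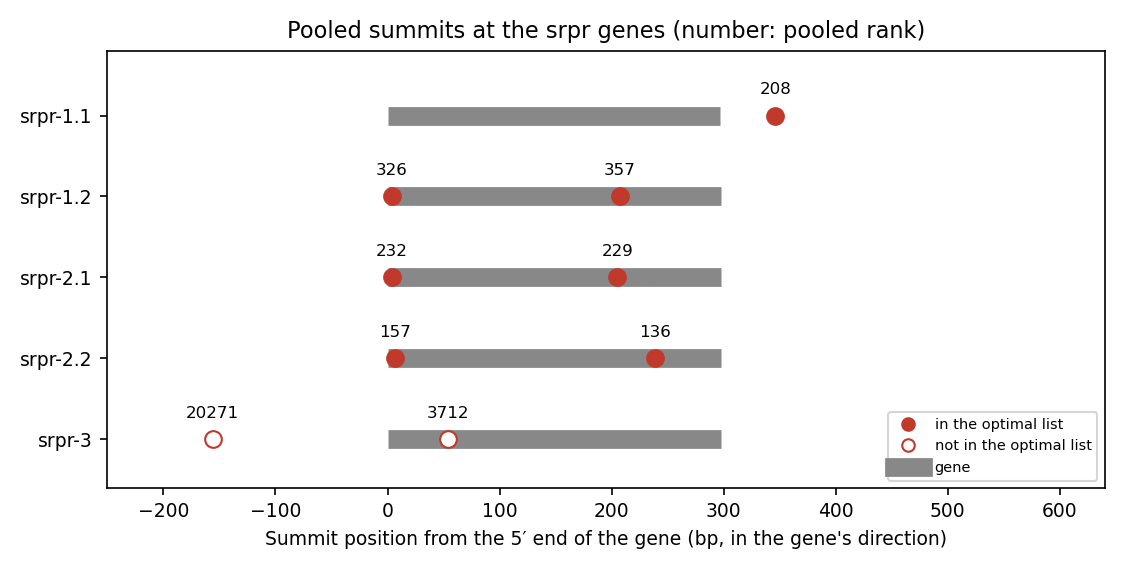
Pooled summits (circles, with pooled rank) on the 5 srpr genes (grey bars), placed in bp from the 5′ end in the direction of the gene. Optimal summits (filled) fell at 4 to 7 bp and at 205 to 239 bp in 3 genes and beyond the 3′ end of srpr-1.1, and both summits at srpr-3 (open) were outside the optimal list.

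Both replicates held these regions, with summits at the same base in some cases and apart in others. At srpr-2.2 the replicate 1 summits stood at 239 and 19 bp (ranks 121 and 144) and the replicate 2 summits at 239 and 7 bp (ranks 195 and 201). At srpr-1.2 they stood at 5 and 205 bp in replicate 1 (ranks 327 and 373) and at −35 and 193 bp in replicate 2 (ranks 372 and 386). These placements lay within about 40 bp of each other.

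At srpr-2.1 the replicates differed more, with summits at 108 and 325 bp in replicate 1 (ranks 201 and 376) and at 214 and 7 bp in replicate 2 (ranks 269 and 272). At srpr-1.1 the single summit stood at 423 bp in replicate 1 (rank 185) and at 338 bp in replicate 2 (rank 274), beyond the 3′ end in both. srpr-3 was low in both lists, with a best rank of 3878 in replicate 1 and 2195 in replicate 2. The lists do not say how reads that match more than 1 copy were placed, and the part of this in the ranks and summit positions was not tested. Each of the 32 summit windows of 101 bases, those at the srpr genes included, occurred once in the genome. A window that occurs once can still differ from another copy at few bases, so this does not say how reads were placed.

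Apart from the srpr genes, the highest-ranked ncRNA candidate was T28D6.13 with its neighbours T28D6.15 and T28D6.10, at chrIII:11371338-11371585 inside an intron of the alpha tubulin gene tba-7. Its score was 655.6 at pooled rank 76, and its rank was 78 in replicate 1 (score 450) and 91 in replicate 2 (score 206.5). The summit lay 9 bp inside T28D6.13, a gene of 76 bp, and over 300 bp from the nearest protein-coding start. It was the only 1 of the 32 above rank 100 in both replicates, and it held the B box letters shown above. The nearest annotated tRNA, snoRNA, snRNA or rRNA gene lay 17764 bp away.

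F16A11.9 and F16A11.7, in an intron of the phosphatase 4 regulatory gene ppfr-1, followed at pooled rank 179 with a score of 394. Their rank was 175 in replicate 1 and 244 in replicate 2. The region was 126 bp wide, and anr-20, an antisense RNA gene, also lay within 200 bp of the summit, and which of these genes the region belongs to was not tested. K06G5.7 and K06G5.6, between genes on X, had a score of 285.1 at rank 293, with rank 261 in replicate 1 and 520 in replicate 2. The nearest annotated tRNA, snoRNA, snRNA or rRNA gene lay 667 bp from the K06G5.7 summit. These 3 loci and the srpr genes held every optimal ncRNA candidate ranked above 297.

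C30E1.9 on X stood apart by length. At 14770 bp (chrX:16929914-16944683) it was the longest of the 7762 annotated ncRNA genes, whose median length was 140 bp, and it held 12 ncRNA candidates, the most at any 1 gene. Only the regions at its ends ranked high. The summit 14510 bp from its 5′ end had rank 297 and a score of 282.6 (rank 286 in replicate 1 and 298 in replicate 2). The summit at 102 bp had rank 350 and a score of 259.4 (ranks 291 and 787). The nearest tRNA, snoRNA, snRNA or rRNA gene lay 907 bp from the first of these summits and 1675 bp from the second. The next ranks were 1067 and 1493, for summits that also lay near the ends, at 350 and 14713 bp, and the other 8 ran from 12985 to 29189. The windows at the ends differed in composition, with a GC content of 17.8% and 95.05% soft-masked repeat bases at the 3′ end and 51.5% GC and no masked base at the 5′ end.

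The next optimal ncRNA candidates in rank each marked a separate locus. F13D12.11, in an intron of the G protein beta subunit gene gpb-1, had a score of 251.6 at rank 365, with ranks of 522 and 246 in replicates 1 and 2. T25C12.7, in an intron of the heterochronic regulator lin-14, had a score of 251 at rank 367, with ranks of 334 and 697 in replicates 1 and 2. Y55B1BR.7, between genes, had a score of 245.8 at rank 378, with ranks of 313 and 1080. The last pair of loci stood within the top 649 of replicate 1 and outside the top 649 of replicate 2.

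The best region on chromosome IV, at Y67D8A.6 in an intron of the phosphorylase kinase gene phkb-1, had a score of 236.1 at rank 407 (ranks 310 and 1864 in replicates 1 and 2). The best on V was T28B11.22 with T28B11.14 and T28B11.7, in an intron of T28B11.1, with a score of 215 at rank 459 (ranks 419 and 489). Other host genes were let-526, which encodes an ARID domain protein, lit-1, a Nemo-like kinase, cdh-9, a cadherin, kin-20, a casein kinase I, pkc-1, a protein kinase C, ceh-18, a homeobox gene, abts-1, an anion exchanger, and lpd-3. Each of these 8 hosted 1 optimal ncRNA candidate.

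The lower end of the optimal set was less even between replicates. K08A8.20 with K08A8.21 had a pooled score of 181.8, with ranks of 489 and 2891 in replicates 1 and 2. Y46E12BL.5 had a pooled score of 181.4, the lowest of the 32, with ranks of 448 and 4101. C38H2.4 had a pooled score of 182.9, with ranks of 632 and 742. Just outside the optimal set, T25D10.6, in an intron of T25D10.4, had a pooled score of 179.5, with ranks of 544 and 4332, and F26D11.16 and ZK867.4 both had 177.6. The scores thus ran on without a gap across the edge of the list.

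All 32 optimal ncRNA candidates overlapped a region in the list of each replicate by at least 1 bp. The optimal list was made from these same replicates, so this agreement is a description and not separate support. By rank, 30 of 32 reached the top 649 in replicate 1 (93.8%), 19 of 32 in replicate 2 (59.4%, 40.6 to 76.3) and 17 of 32 in both (53.1%, 34.7 to 70.9). Over all nuclear optimal peaks 442 of 629, or 70.3%, did so in both, and this share lies inside the interval of the ncRNA candidates. The lowest ranks in replicate 2 were those of F52B5.9 (rank 10935, against 453 in replicate 1), ZC64.13 (4279 against 617) and Y46E12BL.5 (4101 against 448). All 7 optimal candidates at srpr genes ranked in the top 649 of both lists.

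Of the 1557 other ncRNA candidates, 1385 overlapped a replicate 1 region (89.0%), 1128 a replicate 2 region (72.4%) and 987 both (63.4%). Among them 10 reached the top 649 in both replicates, and each of these 10 overlapped an optimal region. The replicates thus held no further ncRNA candidate of this rank that was clear of the optimal list.

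**Figure D4:**
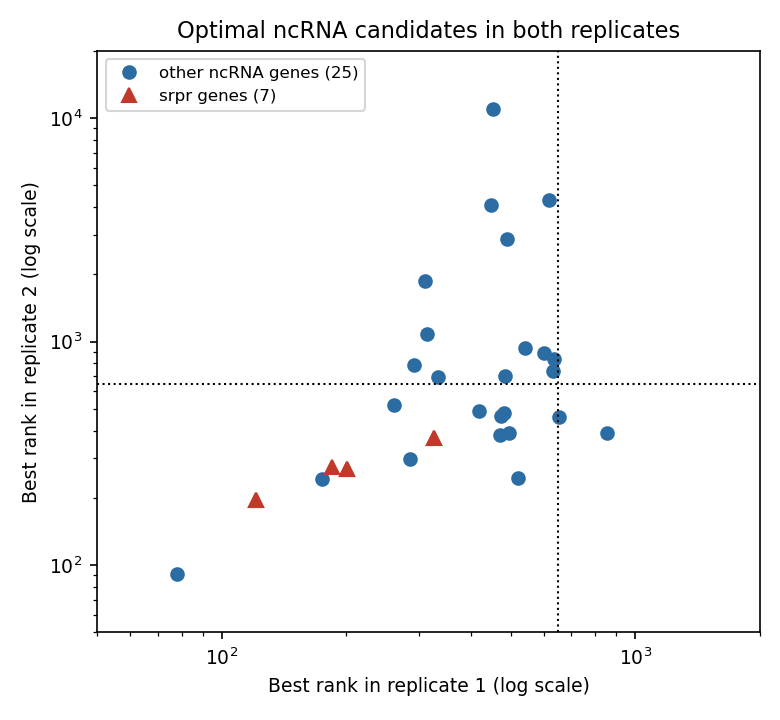
Best rank of the 32 optimal ncRNA candidates in replicate 1 (x axis) and replicate 2 (y axis), both on log scales, with dotted lines at rank 649; candidates that overlap the same replicate regions share a point, so the 7 at srpr genes (triangles) show as 4. The 17 candidates in the lower left include all 7 at srpr genes, and most of the rest lie above the horizontal line, outside the top 649 of replicate 2.

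Summits were placed along the nearest ncRNA gene in its own direction. Among optimal candidates 17 of 32 summits lay inside the nearest ncRNA gene (53.1%, 34.7 to 70.9), 7 before it and 8 beyond it, against 629 of 1557 inside among other ncRNA candidates (40.4%, 37.95 to 42.88). The median summit of the optimal candidates lay 95.5 bp from the 5′ end, with quartiles of 4 and 195.2 bp and a 95% interval of the median from 4 to 184 bp. That of the other ncRNA candidates lay at 55 bp, with quartiles of −37 and 168 bp. Within 20 bp of the 5′ end on either side stood 9 of 32 optimal summits (28.1%) and 170 of 1557 others (10.9%). Of the 9, 3 were those at srpr-1.2, srpr-2.1 and srpr-2.2, and 4 were at F16A11.9, K06G5.7, Y55B1BR.7 and Y47G6A.35, whose windows hold runs of the dinucleotide TG. How reads were placed is not stated for either kind of sequence, and its part in these positions was not tested.

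**Figure D5:**
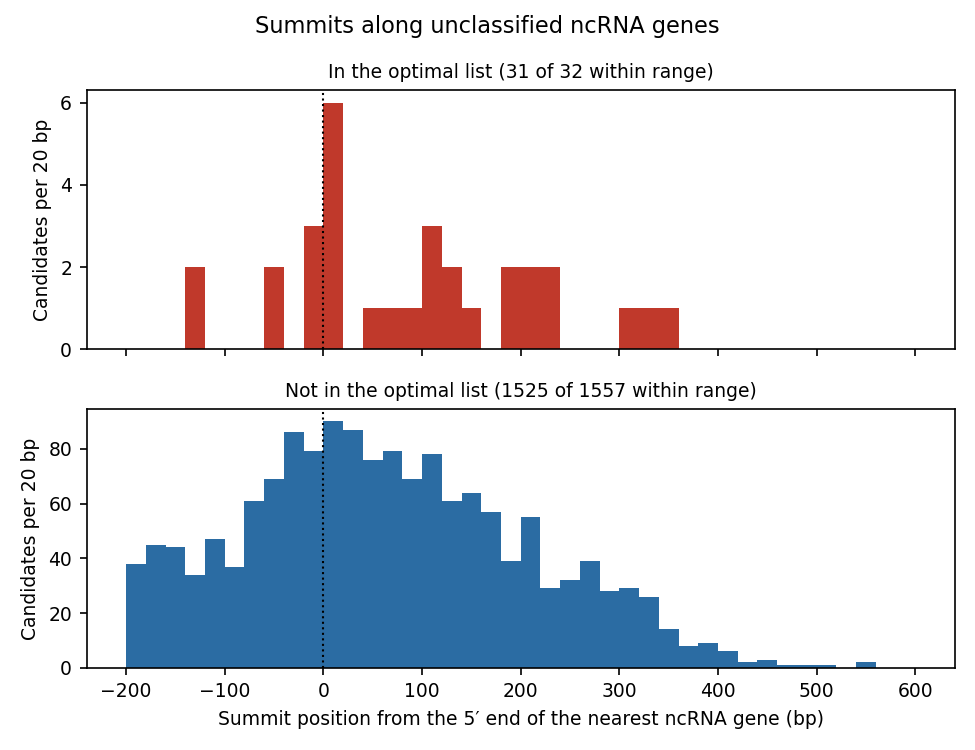
Number of ncRNA candidates per 20 bp of summit position from the 5′ end of the nearest ncRNA gene, for optimal (top) and other candidates (bottom); the dotted line is the 5′ end. The tallest bin in both begins at the 5′ end, with 6 of 32 optimal and 90 of 1557 other summits.

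The assignment to a strand or a single gene was often open to more than 1 reading. Several ncRNA genes lay within 200 bp of 8 of 32 optimal summits and of 434 of 1557 others, and genes on both strands of 6 of 32 (18.8%) and 376 of 1557 (24.1%). ChIP-seq does not report a strand, so which of these genes a region belongs to was not tested. Alternative starts of the host genes bore on few optimal regions. Only F10C2.10, in pkc-1, lay in a promoter window drawn from an isoform start, against 127 of 1557 other ncRNA candidates (8.16%).

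By chromosome, 12 of the 32 optimal ncRNA candidates lay on III, of which 7 were at srpr genes, and 11 on X, with 4 on I, 2 on II, 1 on IV and 2 on V. The best on II was F13D12.11, on X K06G5.7 and on I F16A11.9. X held 510 of all 1589 ncRNA candidates (32.1%, 29.8 to 34.4), close to its 2520 of 7762 annotated ncRNA genes (32.5%) and above its part of all nuclear candidates (15.6%). On X 11 of 510 ncRNA candidates were optimal (2.16%, 1.08 to 3.83), against 19 of 2934 other candidates off promoters and small RNA genes (0.648%, 0.390 to 1.01). On the autosomes the counts were 21 of 1079 (1.95%, 1.21 to 2.96) and 71 of 17670 (0.402%, 0.314 to 0.507). The ncRNA candidates stood above the others on X and on the autosomes alike.

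Few ncRNA genes had an optimal region that the rule kept. Of 7762 genes, 1808 (23.3%) had an ncRNA candidate within 200 bp and 38 (0.490%) an optimal one. These counts depend on the exclusions. Before them, 2484 nuclear candidates lay within 200 bp of an ncRNA gene, and 227 of these were optimal. Genes near excluded regions only were not counted. With summits over 1000 bp apart counted as separate loci, the 32 optimal candidates made 29 loci and the 1589 made 1313. Among the 13 ncRNA genes with a name, srpr-1.1, srpr-1.2, srpr-2.1 and srpr-2.2 had an optimal ncRNA candidate. The best pooled ranks of others were 3712 for srpr-3, 3830 for linc-171, 3933 for rncs-1, 9683 for lfor-2, 12439 for tts-1 and 16822 for lfor-1. tts-2 had 2 pooled regions, at a best rank of 1513, and neither was an ncRNA candidate under the rule. rpr-1 and mrpr-1 were left out by name.

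The B box letters stood in few windows of the ncRNA candidates. The rule had left out regions near tRNA genes, where these letters are common. The B box GTTCNANNC, searched on both strands of the windows of 101 bases, stood in 1 of 32 optimal ncRNA candidates (3.12%, 0.0791 to 16.2), 41 of 1557 others (2.63%) and 4.06% of all nuclear candidates. Among optimal peaks near tRNA genes it stood in 118 of 213 (55.4%, 48.4 to 62.2). GTTCGA, which overlaps the B box letters, and CGAACC, which overlaps GTTCGA on the other strand, each stood in 0 of 32, which allows a share of up to 10.9%. Over all nuclear optimal peaks, which include those near tRNA genes, GTTCGA stood in 19.1% and CGAACC in 16.5%. Among optimal peaks off promoters, small RNA genes and ncRNA genes each stood in 4 of 90 (4.44%), inside the interval of the 32. No match says only that these letters are not in these windows.

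Of the other motifs, which were chosen with earlier results of these data known, CCGCCC stood in 3 of 32 windows (9.38%, 1.98 to 25.02), CCGCAC in 2 (6.25%, 0.766 to 20.8), CGCACA, which overlaps CCGCAC by 5 letters, in 1 and GAGAGA in 3. All nuclear candidates held CCGCCC in 3.83%, CCGCAC in 2.58%, CGCACA in 3.37% and GAGAGA in 8.63% of windows. Over all nuclear optimal peaks the shares were 11.92%, 10.97%, 12.4% and 13.35% in the same order. The intervals of the 32 cover all of these shares, so no difference was detectable at this number of regions. TTTTTT stood in 2 of 32 optimal windows (6.25%, 0.766 to 20.8), 27.4% of other ncRNA candidates and 34.6% of all nuclear candidates, and in 21 of 64 flanking windows centred 300 bp from the optimal summits (32.8%, 21.6 to 45.7). It stood in 19.7% of all nuclear optimal peaks and in 15 of 90 optimal peaks off promoters, small RNA genes and ncRNA genes (16.7%, 9.64 to 26.0), and both shares lie inside the interval of the 32. The median GC content of the windows was 51.5% for the optimal ncRNA candidates, 44.6% for the other ncRNA candidates, 40.6% for all nuclear candidates and 50.5% for all nuclear optimal peaks. The part of base composition in the TTTTTT share was not tested. No window of the 32 held more than 1 of these 7 motifs, and 21 held none.

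Runs of TG were a feature that the rule did not use and that was looked for after the windows had been seen. The dinucleotide stood at least 10 times in a row, on either strand, in 4 of 32 optimal windows (12.5%, 3.51 to 29.0), at F16A11.9, K06G5.7, Y55B1BR.7 and Y47G6A.35, which lies in an intron of lpd-3. It stood in 5 of 1557 other ncRNA windows (0.321%, 0.104 to 0.748), 51 of 29979 nuclear candidates (0.170%, 0.127 to 0.224) and 12 of 629 nuclear optimal peaks (1.91%, 0.990 to 3.31). In optimal peaks off promoters, small RNA genes and ncRNA genes it stood in 3 of 90 (3.33%, 0.693 to 9.43), and this interval overlaps that of the optimal ncRNA windows. At K06G5.7 and Y55B1BR.7 the run filled 54 and 26 of the 101 bases shown above. Soft-masked repeat covered 39.6% of the window at F16A11.9, 56.4% at K06G5.7, 50.5% at Y55B1BR.7 and 100% at Y47G6A.35. The mean masked share was 18.4% over all 32 optimal windows and 21.8% over the other ncRNA windows. The files do not say how reads were placed in such repeats, and its part in these ranks was not tested.

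A search for sequence matches to annotated small RNA genes gave none at the optimal ncRNA candidates. It cannot show that no copy is there, since a diverged copy can fall short of the threshold used. Windows reaching 100 bp to either side of the summit were compared by BLASTN, at an expect value of 1e-05 or less, with all annotated nuclear tRNA, tRNA pseudogene, snoRNA, snRNA, rRNA and miRNA genes. Of the 32, 0 gave a match, which allows up to 10.9%. Of 1557 other ncRNA candidates 34 did (2.18%), 23 to miRNA genes, 7 to tRNA pseudogenes and 4 to snoRNA genes. These 34 are not a count of unannotated copies, since the rule did not leave out miRNA genes outside the mir-51 family or tRNA pseudogenes. Some were 100% identical to a gene on the same chromosome, such as mir-1 over 96 bases and lin-4 over 94. Windows 1000 bp away matched in 3 of 64 cases for the optimal and 57 of 3114 (1.83%) for the other ncRNA candidates. The rule left out summits within 200 bp of a tRNA, snoRNA, snRNA or rRNA gene. No summit window could therefore hold such an annotated gene itself, while windows 1000 bp away could, so these shares are not like for like. Other annotated noncoding classes were also rare nearby. Antisense RNA genes lay within 200 bp of the summit at 2 optimal candidates, F16A11.9 and F48C1.13, and at none of the others, while piRNA genes lay near 14, miRNA genes near 14 and lncRNA genes near 6, all outside the optimal list.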

How the data were processed

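Binding of GFP-tagged C38D4.7 was measured by ChIP-seq in 2 biological replicates of 1 group. The deposited lists hold regions on ce11 with a score by the authors, whose scaling is not stated, the −log10 of the q-value as deposited, and the summit as a deposited offset from the region start. Candidate regions came from each replicate and from pooled alignments, against a control alignment, and optimal peaks from the irreproducible discovery rate (IDR), per the read-me texts deposited with the lists. Not given in the sources used here were the caller, the aligner, the treatment of multiply matching reads and the IDR threshold. The −log10 q shared its top value of 3.06 in 24 of the 32 optimal ncRNA candidates, so ranks follow the score. Read depth is unknown. Intervals are 95% exact (Clopper-Pearson) binomial intervals and cover counting error over regions only.

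Genes and sequence were those of RefSeq WBcel235, the same assembly as ce11. A replicate rank is that of the best replicate region that overlaps the pooled region by at least 1 bp. Analyses used Python 3.11.15, numpy 2.4.6, pandas 2.3.3, SciPy 1.17.1, matplotlib 3.10.9, MAFFT 7.526 for the srpr alignment and BLASTN 2.17.0, and the counting steps were tested on simulated data. No test was made, since there is 1 group and regions are not replicates.

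The genes, motifs and settings were chosen with earlier results of these data known. Named items were the ncRNA genes at the 15 highest-scoring optimal ncRNA candidates, the best on each chromosome, genes with 3 or more optimal candidates (0 genes), the 3 lowest optimal and 3 highest other candidates, up to 5 with the most motifs, and their host genes. Other items, the B box, the TG runs and the BLASTN search were chosen after values were seen. Alternatives were other distances, promoter windows, overlap rules and motif windows, a stricter list with fewer of the highest scores, and use of 1 replicate alone, with its 649 best regions in place of the optimal list.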

Additional observations from a re-analysis of the deposited data

How the results depend on the processing

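The number of optimal ncRNA candidates was 32. It was 17 when the summit had to lie inside the gene and 9 when only the higher-scoring part of the optimal list was kept, both by construction subsets of the 32. Other distances, promoter windows and exclusions gave 27 to 44. Leaving out each replicate gave 34 to 42, and the optimal candidates overlapped by these numbered 19 without replicate 1 and 30 without replicate 2, with 7 at srpr genes in each. The median summit offset of 95.5 bp was 102.5 to 118.5 bp, and the CCGCAC share of 6.25% was 2.94 to 4.76%, when each replicate was left out. The 17 candidates in the top ranks of both replicates were 13 when summits had to lie within 100 bp. Alternatives without srpr genes, and with isoform starts as promoters (31 candidates), were chosen after seeing the data; without srpr genes the count was 25, the offset 89 bp and the CCGCAC share 8%. No paired analysis was possible because there is only 1 group. Unknown read depth limits the ranking of low regions, and the lists end at a fixed or unknown length.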
